A study of Mus musculus with 4 samples.

Results

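The unfolded protein response and the integrated stress response were followed through 10 genes chosen by name, of 46983 genes in the deposited count matrices, in nuclei of mouse brains before and after a permanent occlusion of the middle cerebral artery. The 10 genes were 2 sensors (Ern1 and Eif2ak3), 3 transcription factors (Xbp1, Atf4 and Ddit3), 3 genes of protein folding and disposal in the endoplasmic reticulum (Hspa5, Calr and Herpud1) and 2 targets of the ATF4 branch (Asns and Trib3). When unfolded proteins gather in the endoplasmic reticulum, the chaperone encoded by Hspa5 leaves the sensors it holds. IRE1 (the protein of Ern1) then splices Xbp1 mRNA, PERK (the protein of Eif2ak3) phosphorylates eIF2 and slows translation, and ATF6 is cut into a free transcription factor, and together they raise genes of folding and degradation. Phosphorylated eIF2, which other kinases can also produce on amino acid shortage, infection or heme loss, favours translation of Atf4 mRNA, and ATF4 raises genes of amino acid supply together with Ddit3, whose product CHOP is linked to cell death. Ischemic brain tissue is a known setting of both responses. The splicing of Xbp1 and the translation of Atf4 leave no trace in gene counts, so the values below cover the amount of RNA in nuclei and not the activity of the pathway.

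Nuclei came from male C57Black/6 mice, 3 month old, and were profiled on the 10x Genomics droplet platform. A sham control library was set against libraries taken 1 day, 3 days and 7 days after proximal coagulation and transection of the middle cerebral artery, a model in which the vessel stays closed and the lesion is a small one in the parietal cortex. Each of the 4 groups was 1 library of 3 pooled hemispheres, so no replicate exists, animals cannot be told apart and no test between conditions was possible. Most of a hemisphere lies outside such a lesion, so each library mixes nuclei from injured and distant tissue. The labels of the sham control disagree on the tissue, naming intact cortex in one place and forebrain hemispheres in another, and this library held 354 nuclei with markers of striatal projection neurons. Nuclei per time point in the study's own account match these libraries only when days 3 and 7 are exchanged. The deposited labels were kept, and the order of those 2 days is uncertain in every result below.

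The libraries held 23285489 to 42963698 unique molecular identifiers (UMIs, single captured RNA molecules), of which 52.1% to 60.5% lay in barcodes called as nuclei. After 145 doublets were removed 2118 sham control nuclei, 1018 day 1 nuclei, 3092 day 3 nuclei and 1572 day 7 nuclei remained, with median depths of 6412, 11029.5, 5514 and 7029.5 UMIs. The day 1 library was thus the smallest and the deepest per nucleus, and 9 barcodes were found in more than 1 library. Named classes rest on markers only, and 6 of them held at least 40 nuclei in each library. These were glutamatergic neuron-like (565, 287, 893 and 429 nuclei from sham control to day 7), striatal projection neuron-like (354, 131, 392 and 201), GABAergic interneuron-like (183, 86, 229 and 123), oligodendrocyte-like (322, 161, 434 and 254), astrocyte-like (141, 57, 217 and 70) and microglia-like nuclei (87, 44, 187 and 93). A microglia-like cluster of 30 nuclei also carried oligodendrocyte transcripts. Levels are UMIs scaled to the total of the class (counts per 1000000 UMIs, CPM), so a shift in how many nuclei a class holds does not enter them, whereas it does enter values given over all nuclei. Intervals are exact 95% intervals of the counts and cover counting error only, not the spread between animals.

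RNA outside nuclei moved with several of the results and is given beside them. In barcodes of at most 1000 UMIs, Hspa5 stood at 230 CPM in sham control and 291, 283 and 297 CPM on days 1, 3 and 7, and Calr at 259, 291, 288 and 328 CPM, several times their level in nuclei. Ern1, by contrast, stood at 16.2 to 17.3 CPM in that RNA and Trib3 at 0.9 to 1.5 CPM. The share of free RNA in each class was estimated from transcripts that belong to other cells (5 neuronal genes in glia, 6 oligodendrocyte genes in neurons), a measure that also counts doublets that went unseen. It was 7.43%, 6.43%, 8.65% and 7.03% in glutamatergic neuron-like nuclei from sham control to day 7, but 8.26%, 13.6%, 14.5% and 13.2% in striatal projection neuron-like nuclei. In interneuron-like nuclei it was 15.6% on day 3 against 8.54% in sham control, and it was higher in glia, up to 34.2% in microglia-like nuclei on day 1. The level that free RNA alone would give in a class is called its free RNA level here.

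Motifs known to bind the factors of these pathways were found just upstream of 4 of the 10 genes. The stretches are printed because 3 of the 4 belong to the genes on which most of the results turn, Hspa5, Calr and Herpud1. They are RefSeq promoters of build GRCm38.p6, read along the gene from 5′ to 3′, with the matched motif in capitals and 5 bases on either side.
Hspa5: cttcaCCAATCGGAGGCCTCCACGacggg
Calr: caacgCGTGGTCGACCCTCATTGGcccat
Herpud1: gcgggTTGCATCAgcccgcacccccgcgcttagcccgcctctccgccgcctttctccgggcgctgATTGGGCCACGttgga
Asns: ccacaTGATGAAACttccc
The Hspa5 stretch is chr2:34772020-34772048 on the plus strand, and its motif, 65 to 47 bases before the RefSeq start site, is the endoplasmic reticulum stress response element, CCAAT and CCACG with 9 bases of any kind between them. The Calr stretch is chr8:84847070-84847098, read on the minus strand, and holds the same element on the opposite strand of the promoter, 162 to 144 bases before the start. This element is known to bind ATF6 with NF-Y, and it occurred in 0.119% of 32851 mouse promoters of the same 300-base length. The Herpud1 stretch, chr8:94386312-94386392 on the plus strand, holds the second form of the element (ATTGG and CCACG with 1 base between them, in 0.0365% of promoters) at 52 to 42 bases before the start. It also holds the core of the C/EBP-ATF response element (TTGCATCA, in 0.895% of promoters), which ATF4 dimers bind, at 112 to 105 bases. In Asns, at chr6:7693219-7693237 on the minus strand, the nutrient-sensing response element TGATGAAAC (in 0.247% of promoters), a site of ATF4 binding, lies 23 to 15 bases before the start. The unfolded protein response element TGACGTGG (in 0.676% of promoters) was in no member's window. Both strands were searched, the 2 forms of the stress element end alike and could share those letters, which no member's window showed, and a match describes letters, not binding. In the GENCODE annotation of GRCm38 the Hspa5 gene covers chr2:34771970-34777547 and the Asns gene chr6:7675169-7693254, so that their stretches lie within the longest annotated span of the gene, while Calr covers chr8:84841850-84846934 and Herpud1 chr8:94386438-94395377.

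In sham control nuclei the members fell into different orders of cell class. Hspa5 (BiP, the main chaperone of the endoplasmic reticulum) stood at 88.2 CPM in microglia-like, 82.9 in astrocyte-like, 61.2 in oligodendrocyte-like, 36.3 in interneuron-like, 24.9 in glutamatergic neuron-like and 23.8 in striatal projection neuron-like nuclei. Calr (calreticulin, a calcium-binding lectin chaperone) ran from 83.3 CPM in microglia-like to 28.5 in striatal projection neuron-like nuclei. For both genes the free RNA levels also ran downward from microglia-like nuclei, at 70.2 and 79.2 CPM, to neurons, and in sham control microglia-like nuclei they nearly reached the measured values. Herpud1, a membrane protein that helps hand misfolded proteins to the degradation machinery, ran from 83.3 CPM in microglia-like to 12.5 in glutamatergic neuron-like nuclei, where its free RNA levels were 21.4 and 5.2. Ern1 was highest in oligodendrocyte-like nuclei at 44.6 CPM against 15.4 in striatal projection neuron-like nuclei, and Eif2ak3 ran from 32.6 in interneuron-like to 19.7 in striatal projection neuron-like nuclei. For Ern1 and Eif2ak3 the free RNA levels were at most 6.90 CPM. Among neighbours in these orders, only 1 pair had intervals that did not overlap, namely Herpud1 in interneuron-like and striatal projection neuron-like nuclei, at 26.9 and 12.8 CPM. Trib3 was nearly absent, with 10 UMIs in all sham control nuclei. Levels are compared here within a gene and not between genes, since intronic reads are counted and Ern1 spans 93203 bases while Atf4 spans 2358.

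**Figure D1:**
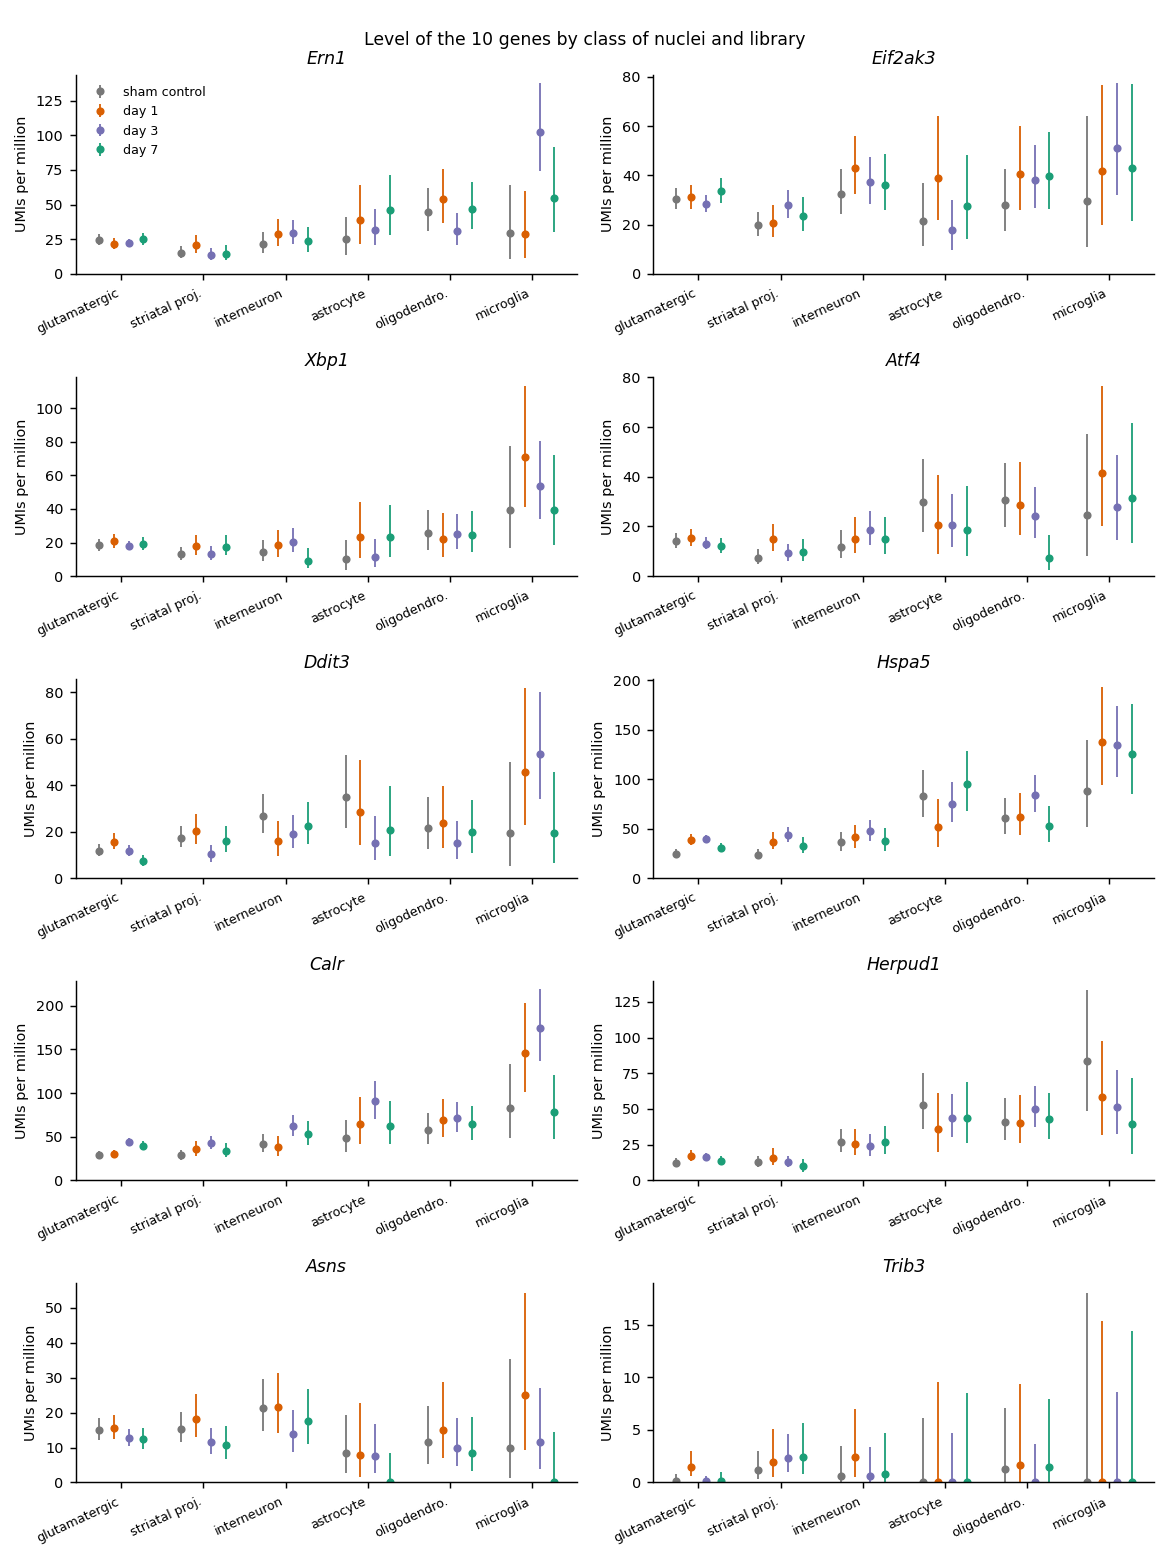
Level of each of the 10 genes in the 6 cell classes and 4 libraries, in CPM (UMIs scaled to the total of the class) on axes that start at 0 and differ between genes, with bars for exact 95% Poisson intervals. Neurons have the narrowest bars, Ern1 in microglia-like nuclei on day 3 stands at 102 and Trib3 stays near 0.

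Over the 6 classes and 3 days, 141 member ratios rested on at least 20 UMIs over both libraries, and 15 of them had an interval above 1 and 4 an interval below 1. Without the nucleus that held most UMIs of the gene, 15 of these 19 intervals still left out 1. On day 1 this was 4 above and none below of 46 ratios, where 8.96% of the values of all genes in these classes had an interval above 1 and 7.98% one below. On day 3 it was 10 and 2 of 49 (6.73% and 8.17% of all genes), and on day 7 it was 1 and 2 of 46 (6.73% and 9.42%), so that only the day 3 count above 1 exceeded its background share. Of the 15 ratios above 1, those of Hspa5 and Calr made up 10, all but 1 of them on days 1 and 3. Ratios of sensors, factors and ATF4 targets were fewer and lay on both sides of 1.

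**Figure D2:**
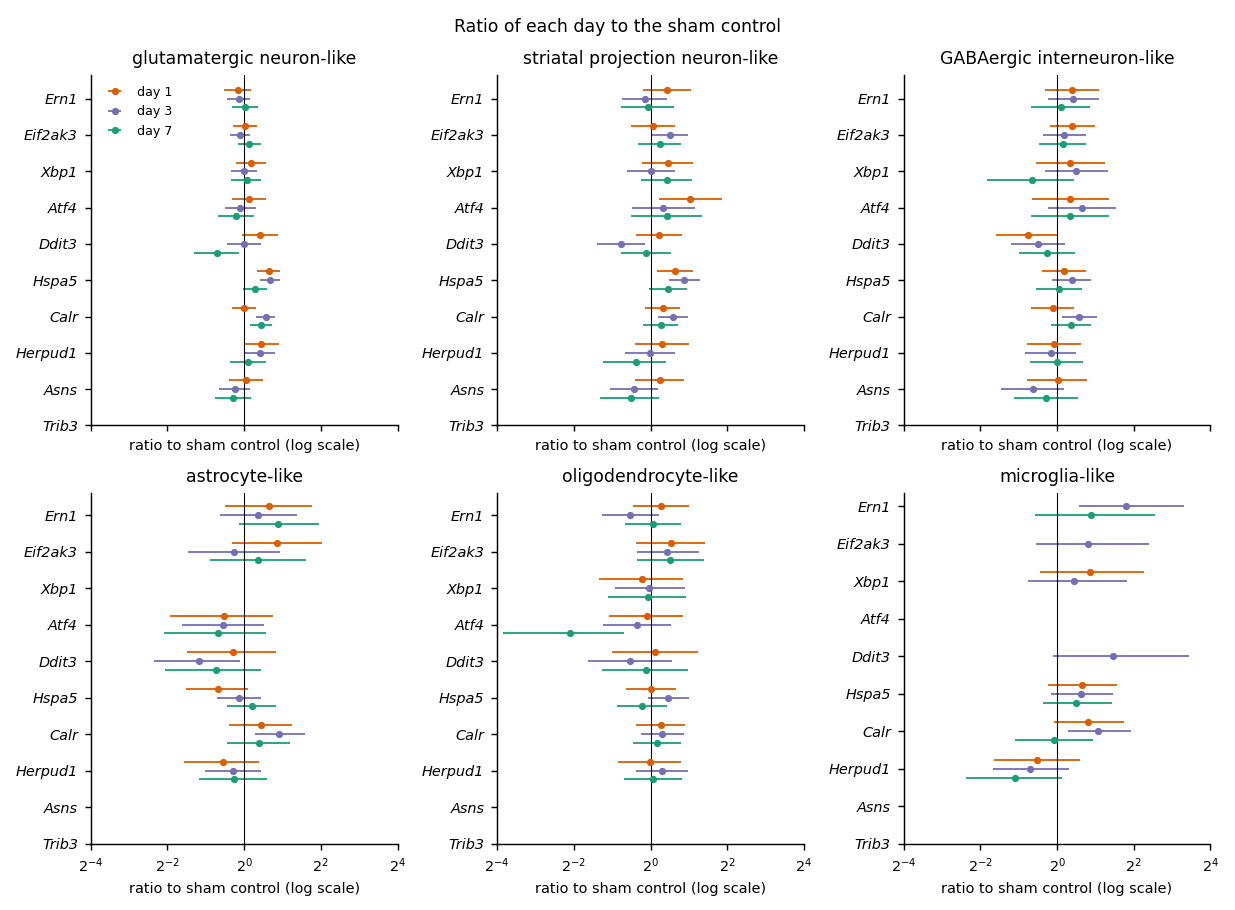
Ratio of each gene's level on days 1, 3 and 7 to sham control by cell class, on a log axis, with exact 95% intervals that cover counting error only. Hspa5 and Calr stand to the right of 1 on day 3 in neurons, with Hspa5 at 1.60 and Calr at 1.48 in glutamatergic neuron-like nuclei, while Ddit3 in astrocyte-like nuclei stands at 0.440.

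Among the genes of folding and disposal, Hspa5 in glutamatergic neuron-like nuclei was 24.9 CPM in sham control, 38.8 on day 1, 39.8 on day 3 and 30.5 on day 7, from 164, 207, 366 and 168 UMIs. Day 1 and day 3 stood above sham control at 1.56-fold (1.26 to 1.92) and 1.60-fold (1.32 to 1.93), whereas the interval of day 7, at 1.22-fold (0.980 to 1.53), includes 1. The free RNA levels in these nuclei were 17.1, 18.7, 24.5 and 20.8 CPM, so the free RNA level was close to that of sham control on day 1 and higher on day 3. With free RNA subtracted in 3 different ways the day 1 ratio stayed above sham control, at 0.71 to 1.34 on the log2 scale, whereas the day 3 ratio was 0.62 and 0.98 in 2 of them and turned to -0.22 when free RNA was taken off in proportion to UMIs. All 6 glutamatergic neuron-like clusters with enough UMIs on day 1, and all 7 on day 3, had an Hspa5 ratio above 1, at 1.29 to 1.81 and 1.44 to 2.36.

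In striatal projection neuron-like nuclei Hspa5 was 23.8, 37.1, 43.9 and 32.7 CPM from sham control to day 7. The day 1 and day 3 ratios were 1.56 (1.12 to 2.15) and 1.84 (1.40 to 2.44). Its free RNA levels there were 19.0, 39.6, 41.1 and 39.1 CPM, close to the measured value in each library. Once the free share of the class was subtracted the day 3 ratio was -0.73 on the log2 scale, whereas the other ways of subtraction left it above sham control at 1.36 and 2.60. With every nucleus thinned to 1000 UMIs, which leaves few Hspa5 UMIs, the day 1 ratio turned to -1.89. In interneuron-like nuclei Hspa5 was 36.3, 41.4, 47.4 and 37.7 CPM, and each interval against sham control included 1.

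Glia showed smaller or less certain differences in Hspa5. Oligodendrocyte-like nuclei had 61.2, 62.2, 84.0 and 52.7 CPM, and the day 3 ratio was 1.37 (0.951 to 2.00). In astrocyte-like nuclei the values were 82.9, 51.8, 75.3 and 94.8 CPM, with day 1 at 0.626 (0.353 to 1.07) from 20 UMIs. Microglia-like nuclei had 88.2, 137, 135 and 125 CPM, and all 3 ratios, 1.56, 1.53 and 1.42, had intervals that included 1. The astrocyte-like value of day 1 was below its free RNA level of 74.0 CPM (41.9 in sham control), and with nuclei thinned to 1000 UMIs, which left 8 and 5 UMIs, its ratio turned to 0.63 on the log2 scale.

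Calr differed mainly on day 3. In glutamatergic neuron-like nuclei it was 29.5, 29.6, 43.6 and 39.7 CPM, which put day 1 at 1.00-fold (0.809 to 1.25), day 3 at 1.48-fold (1.24 to 1.76) and day 7 at 1.35-fold (1.11 to 1.64). With free RNA subtracted in proportion to UMIs the day 7 ratio was 0.0020 on the log2 scale, and with an equal number of UMIs subtracted per nucleus the day 1 ratio was -0.93. Thinning to 1000 UMIs per nucleus, which left 9, 5, 36 and 17 Calr UMIs, put day 3 at 1.34 and day 7 at 1.31. Its day 3 ratio was 1.50 (1.15 to 1.96) in striatal projection neuron-like, 1.49 (1.09 to 2.07) in interneuron-like, 1.88 (1.21 to 3.01) in astrocyte-like and 2.10 (1.23 to 3.79) in microglia-like nuclei. In oligodendrocyte-like nuclei the ratio was 1.24 (0.839 to 1.84), so 5 of 6 classes had an interval above 1 on day 3. Free RNA levels of Calr moved with some of these values and not with others. They were 21.4 and 41.8 CPM in striatal projection neuron-like nuclei and 22.1 and 44.9 in interneuron-like nuclei in sham control and on day 3, against measured values of 28.5 and 42.7 and of 41.3 and 61.7. In microglia-like nuclei they were 79.2 CPM in both libraries, against measured values of 83.3 and 175. After the free share of each class was subtracted, the day 3 ratio of Calr was 0.89 on the log2 scale in glutamatergic neuron-like nuclei, but -2.96 in striatal projection neuron-like, -0.08 in interneuron-like and -0.39 in oligodendrocyte-like nuclei. The other ways of subtraction left striatal projection neuron-like nuclei at 0.61 and 0.66 and interneuron-like nuclei at 0.62 and 0.52, and thinning put them at 1.63 and 1.14. In astrocyte-like and microglia-like nuclei the same subtraction gave 5.41 and 4.48, where the sham control level was close to its free RNA level. Free RNA levels of Calr in astrocyte-like nuclei were 47.3 CPM in sham control and 57.8 on day 3, against measured values of 48.1 and 90.6.

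**Figure D3:**
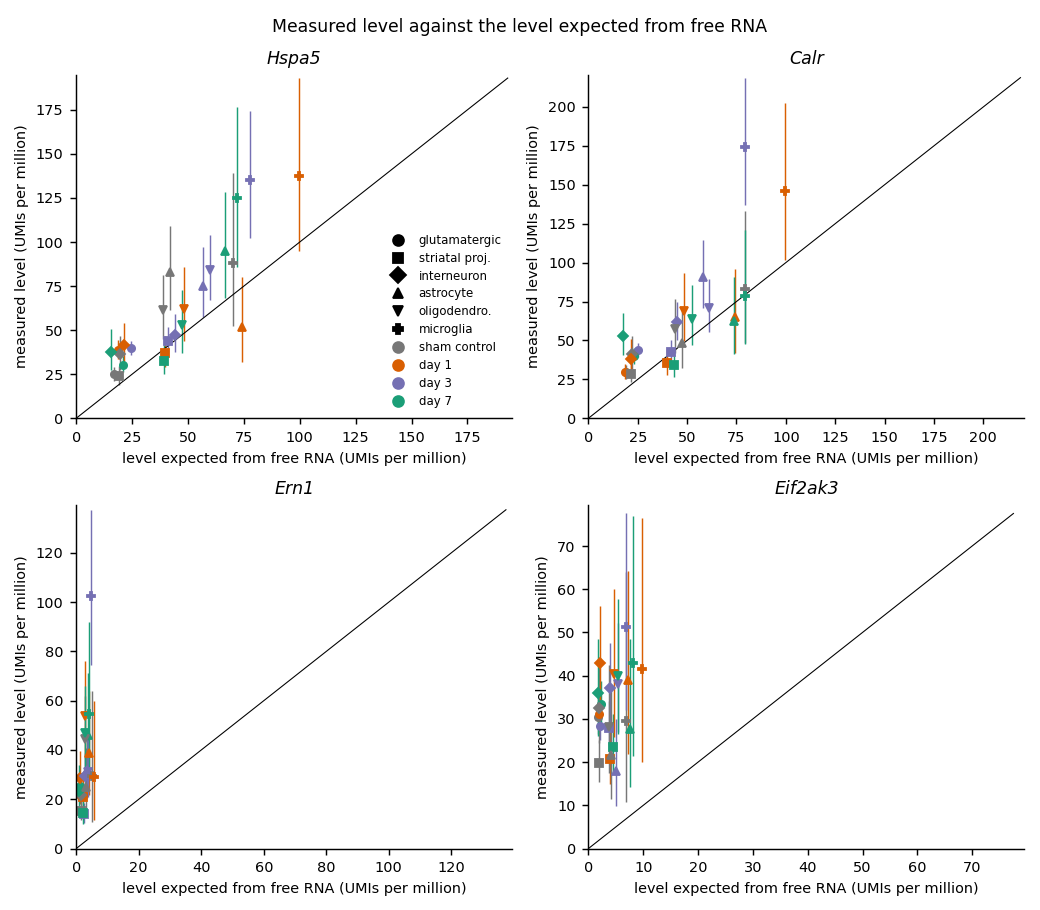
Measured level of Hspa5, Calr, Ern1 and Eif2ak3 in each class and library against the level that free RNA alone would give, both in CPM, with exact 95% Poisson intervals and the line of equality. Striatal projection neuron-like points of Hspa5 and Calr lie on or near the line, while Ern1 in microglia-like nuclei on day 3 lies far above it.

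Herpud1 differed less. Glutamatergic neuron-like nuclei held 12.5, 17, 16.5 and 13.4 CPM, with ratios of 1.37 (1.00 to 1.87) on day 1 and 1.33 (1.01 to 1.76) on day 3. Both intervals included 1 without the nucleus richest in Herpud1, at 1.31 (0.960 to 1.80) and 1.30 (0.989 to 1.73), and with nuclei thinned to 1000 UMIs the day 1 ratio was -0.023 on the log2 scale. In microglia-like nuclei Herpud1 went the other way, at 83.3, 58.3, 51.2 and 39.1 CPM, but all intervals included 1, with day 7 at 0.470 (0.192 to 1.09). Herpud1 is overlapped by an antisense gene, Gm15890, and the strand setting of the counting is not given in the sources used here.

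The summed level of Hspa5, Calr and Herpud1 was 66.9, 85.4, 99.8 and 83.6 CPM in glutamatergic neuron-like nuclei, so that days 1, 3 and 7 stood at 1.28 (1.12 to 1.46), 1.49 (1.33 to 1.68) and 1.25 (1.10 to 1.43) times sham control. Day 3 intervals also lay above 1 in striatal projection neuron-like (1.52), interneuron-like (1.27), oligodendrocyte-like (1.28) and microglia-like nuclei (1.42), and included 1 in astrocyte-like nuclei at 1.14 (0.888 to 1.46). In the unnamed neuronal nuclei, outside the compared classes, every interval included 1. Their ratios were 0.969 (0.820 to 1.15), 1.09 (0.936 to 1.27) and 1.06 (0.902 to 1.26) on days 1, 3 and 7. These sums include free RNA. In striatal projection neuron-like and interneuron-like nuclei the sign of the day 3 ratio of Calr depended on how free RNA was subtracted. So did that of Hspa5 in striatal projection neuron-like nuclei. All 8 glutamatergic neuron-like clusters were above 1 on day 1 and on day 3, with 2 and 5 intervals above 1, and all 7 clusters with enough UMIs on day 7, with 1 such interval. Within the same nuclei the sensors summed to 55.2, 53.0, 50.6 and 58.8 CPM, and every interval of their ratios included 1. The ATF4-branch targets summed to 15.2, 17, 12.8 and 12.5 CPM, again with intervals that included 1.

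Of the sensors, Ern1 (chr11:106394650-106487852, minus strand, with 8.77% of its span exonic) stood out in microglia-like nuclei on day 3. It was 29.4 CPM in sham control, 29.2 on day 1, 102 on day 3 and 54.8 on day 7, from 6, 7, 44 and 14 UMIs, and the 44 UMIs of day 3 were spread over 34 nuclei. The day 3 library was the high one, at 3.48-fold (1.48 to 10.0), and the free RNA level there was 4.68 CPM, so that the ratio was 1.91 to 2.17 on the log2 scale under the 3 ways of subtraction. In the other 5 classes no Ern1 interval left out 1, and glutamatergic neuron-like nuclei held 24.6, 21.9, 22.3 and 25.2 CPM. Thinned to 1000 UMIs, the latter nuclei held 20, 6, 17 and 9 Ern1 UMIs, and the ratios were -0.76, -0.89 and -0.75 on the log2 scale. Eif2ak3 had 1 interval above 1, in striatal projection neuron-like nuclei on day 3 at 1.42 (1.03 to 1.96), from 19.7, 20.7, 28.0 and 23.4 CPM, but without 1 nucleus of 3 UMIs the interval was 0.999 to 1.92. In microglia-like nuclei it was 29.4, 41.7, 51.2 and 43.0 CPM from 6, 10, 22 and 11 UMIs, with wide intervals on all days.

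Xbp1, whose spliced product drives folding and secretory genes, had no interval that left out 1 in the 6 classes. Glutamatergic neuron-like nuclei held 18.2, 20.6, 18.1 and 19.0 CPM of it. Microglia-like nuclei held 39.2, 70.8, 53.5 and 39.1 CPM, with day 1 at 1.81 (0.739 to 4.84). Atf4, the central factor of the integrated stress response, was 14, 15.4, 13 and 12.2 CPM in glutamatergic neuron-like nuclei, with every ratio near 1. In striatal projection neuron-like nuclei it was 7.26, 14.8, 9.12 and 9.75 CPM, and day 1 was 2.04-fold (1.16 to 3.62) above sham control. The free RNA levels of Atf4 in the same nuclei were 6.99, 15.7, 9.49 and 10.4 CPM, close to the measured values in all 4 libraries. With an equal number of UMIs subtracted per nucleus the ratios were 2.89, 2.13 and 2.32 on the log2 scale on days 1, 3 and 7, and the other ways of subtraction gave no value. In oligodendrocyte-like nuclei Atf4 was 30.6, 28.6, 24.0 and 7.12 CPM, and the day 7 value, from 5 UMIs, was 0.233 times sham control (0.0693 to 0.622) and below its free RNA level of 12.6 CPM.

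Ddit3, the gene of CHOP, had ratios below 1 on days 3 and 7 in each class but microglia-like nuclei, from 0.440 to 0.999, with 3 intervals below 1. Clusters within a class did not all follow. All 4 glutamatergic neuron-like clusters with enough UMIs on day 3 were above 1, at 1.10 to 1.86, and those of day 7 stood at 0.635 to 1.00. The 1 oligodendrocyte-like cluster with enough UMIs on day 7 stood at 1.39. Over the class, Ddit3 was 11.9, 15.7, 11.8 and 7.26 CPM in glutamatergic neuron-like nuclei. Day 1 was thus 1.33 (0.964 to 1.83) and day 7 0.612 (0.407 to 0.907) times sham control. In striatal projection neuron-like nuclei it was 17.4, 20.3, 10.3 and 16.1 CPM, with day 3 at 0.591 (0.378 to 0.912), and in astrocyte-like nuclei it was 34.8, 28.5, 15.3 and 20.8 CPM, with day 3 at 0.440 (0.197 to 0.936), or 0.485 (0.215 to 1.05) without 1 sham control nucleus of 2 UMIs. Day 3 was the low library in both, although in striatal projection neuron-like nuclei thinned to 1000 UMIs each its ratio turned to 2.08 on the log2 scale. Microglia-like nuclei held 19.6, 45.8, 53.5 and 19.6 CPM of Ddit3 from 4, 11, 23 and 5 UMIs. They went the other way on day 3, at 2.73 (0.933 to 10.9), whereas day 7, from few UMIs, stood at the sham control level. Over all nuclei Ddit3 was 16.8, 18.1, 15.2 and 13.3 CPM, and only day 7 had an interval that left out 1, at 0.795 (0.655 to 0.963), beside 0.835 (0.713 to 0.976) in RNA outside nuclei. The gene, at chr10:127290774-127296288 on the plus strand, overlaps Mars and Gm4189 on the other strand and a second gene model named Ddit3 on its own strand, so its counts are uncertain to that extent.

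Day 1 differed from the other libraries in how Ddit3 UMIs were spread over nuclei. No nucleus of 2118 in sham control held 4 or more Ddit3 UMIs, which allows a share of up to 0.142%, against 8 of 1018 on day 1 (0.786%), 1 of 3092 on day 3 and 1 of 1572 on day 7. All 10 were neuronal, the highest counts in the 4 libraries were 3, 12, 4 and 4 UMIs, and the limit of 4 was chosen after the values had been seen. Depth moved with this pattern, since the 8 day 1 nuclei held 15919 to 41643 UMIs. When nuclei of at least 10000 UMIs were thinned to that number (581, 540, 674 and 498 nuclei), 0, 3, 0 and 0 of them had 4 or more Ddit3 UMIs, and 3, 5, 1 and 0 had at least 3. With at least 2 the numbers were 8, 14, 9 and 6.

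**Figure D4:**
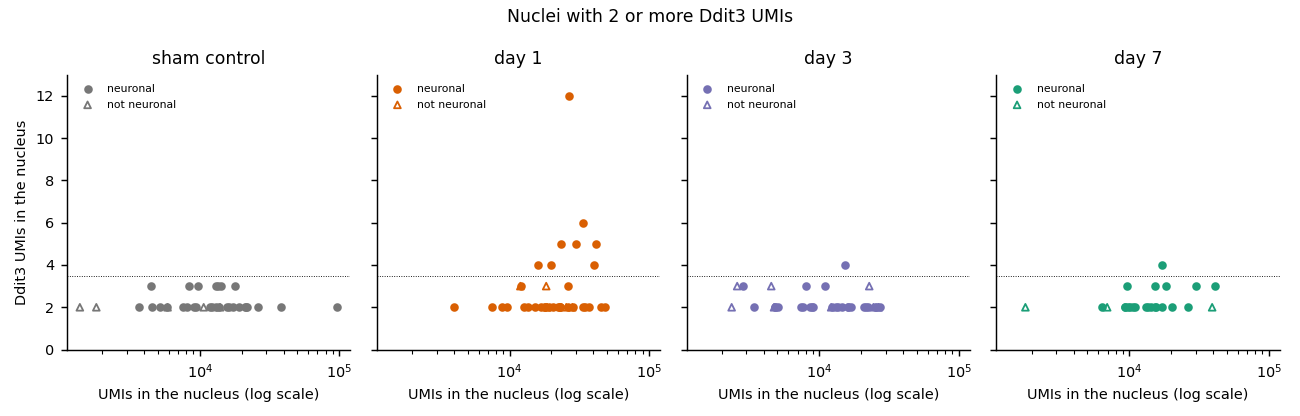
Ddit3 UMIs of each nucleus with at least 2 of them against its total UMIs on a log axis in the 4 libraries, with a dotted line under 4. The day 1 library holds nuclei with up to 12 Ddit3 UMIs, and those with 4 or more have at least 15919 total UMIs, while no sham control nucleus exceeds 3.

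The same 8 day 1 nuclei held 2.09% of the UMIs of neuronal classes in that library. They held 5 of 13 UMIs of Chac1, a glutathione-degrading target of ATF4, and 13 of 79 of Ddit4, an inhibitor of mTORC1. Of Bbc3, which encodes the cell death protein PUMA, they held 7 of 34 UMIs, 6 of them in 1 nucleus. Of the amino acid transporters they held 22 of 142 UMIs of Slc7a5, 14 of them in 1 nucleus, and 19 of 57 of Slc7a11, all in 1 nucleus. Of the members, Hspa5 had 28 of 431, with 10 and 8 of them in 2 of the nuclei, and Trib3 2 of 16. The counts were 14 of 366 for Eif2ak3, 7 of 182 for Atf4, 7 of 195 for Asns, 6 of 270 for Ern1, 6 of 218 for Xbp1, 5 of 225 for Herpud1 and 7 of 397 for Calr, so those of Ern1, Xbp1, Herpud1 and Calr were close to or below the share of all UMIs. Among other targets Psph, of serine synthesis, had 10 of 141 and Mars, which overlaps Ddit3, had 2 of 99. Apart from Mars, the targets named so far are among those with the highest shares of the list. Atf5 (0 of 35), Pycr1 (0 of 23) and Nupr1 (0 of 21) had no UMI in these nuclei. Vldlr (5 of 315), Xpot (8 of 389) and Sars (17 of 822) were close to or below the share of all UMIs. Over the whole list of ATF4 and CHOP targets the 8 nuclei held 4.09%. Within that share, single nuclei held 18 of 31 Slc3a2 UMIs and 13 of 25 Eprs UMIs. These shares describe 8 nuclei of 1 library and carry no interval.

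Asns, which makes asparagine and is raised by ATF4 on amino acid shortage, did not follow the chaperones. Over all nuclei it was 16.1, 17.1, 13.1 and 13.6 CPM, with day 3 at 0.818 (0.690 to 0.972), beside 0.792 (0.721 to 0.870) in RNA outside nuclei. Glutamatergic neuron-like nuclei held 15, 15.5, 12.7 and 12.3 CPM, and no interval in any of the 6 classes left out 1. In astrocyte-like and microglia-like nuclei its level was below the free RNA level in all 4 libraries, with no UMI in either class on day 7. Trib3, a pseudokinase that CHOP and ATF4 raise, had 10, 17, 16 and 10 UMIs over all nuclei. Of these, 1, 8, 1 and 1 lay in glutamatergic neuron-like nuclei, and the 8 of day 1 lay in 7 nuclei. With 1 UMI in sham control the day 1 ratio was 9.86 (1.32 to 438), under the minimum of 20 UMIs.

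All members together changed little in most classes. Their summed day 1 ratio was 1.14 (1.05 to 1.24) in glutamatergic neuron-like and 1.31 (1.15 to 1.50) in striatal projection neuron-like nuclei, and it was 1.46 (1.11 to 1.94) in microglia-like nuclei. On day 3 the same 3 classes had 1.14 (1.06 to 1.22), 1.21 (1.08 to 1.36) and 1.63 (1.27 to 2.10), and interneuron-like nuclei 1.16 (1.01 to 1.34). On day 7 every class had an interval that included 1, with ratios from 0.953 in oligodendrocyte-like to 1.11 in striatal projection neuron-like nuclei. The sign of these sums in neurons depends on free RNA. Subtracted in proportion to UMIs it left glutamatergic neuron-like nuclei at -0.05 on day 1 and -0.11 on day 3 (log2), and subtracted by the share of each class it left striatal projection neuron-like nuclei at -0.16 and -0.44. By role, the 3 factors summed to 1.40 (1.07 to 1.82) times sham control in striatal projection neuron-like and 1.90 (1.05 to 3.59) times in microglia-like nuclei on day 1. In microglia-like nuclei the day 3 sum of Ern1 and Eif2ak3 was 2.61-fold (1.40 to 5.31) and that of Hspa5, Calr and Herpud1 was 1.42-fold (1.03 to 1.98) above sham control.

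Against a fixed size of at least 1.5-fold, the members are read beside the share of all genes past the same size. In glutamatergic neuron-like nuclei 1 of 9 members (Hspa5) was higher on day 1 where 8.58% of genes were, none was lower (5.69% of genes), and on day 3 again only Hspa5 was higher (4.66%) and none lower (6.20%). On day 7 none was higher (6.69%) and Ddit3 was lower (7.93%). Striatal projection neuron-like nuclei had 2 of 9 members higher on day 1, Atf4 and Hspa5 (10.1% of genes), and none lower (5.45%). On day 3 they had Hspa5 higher (5.57%) and Ddit3 lower (6.84%), and on day 7 no member in either direction (5.76% and 9.39%). These counts of 1 or 2 of 9 are of the order of the background shares.

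In interneuron-like nuclei Ddit3 was lower on day 1 (7.33% of genes) and none of 9 higher (8.34%), Atf4 was higher (6.28%) and Asns lower (8.20%) on day 3, and Xbp1 was lower (11.4%) with none higher (6.39%) on day 7. Oligodendrocyte-like nuclei had no member of 8 past the size on day 1 (10.5% of genes higher and 13.4% lower) or day 3 (11.1% and 8.39%), and Atf4 lower on day 7 (14.8% of genes, with 7.99% higher). Astrocyte-like nuclei had Ern1 and Eif2ak3 of 7 members higher (10.6%) and Hspa5 lower (18.2%) on day 1. They had Calr higher (10.1%) and Ddit3 lower (13.6%) on day 3, and Ern1 higher (10.9%) with Atf4 and Ddit3 lower (16.8%) on day 7.

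In microglia-like nuclei the minimum of 20 UMIs decided which members were counted. On day 1, 3 of 4 members with enough UMIs (Xbp1, Hspa5 and Calr) were at least 1.5-fold higher, where 19.2% of genes were, and none was lower (17.0%). On day 3, 5 of 7 (Ern1, Eif2ak3, Ddit3, Hspa5 and Calr) were higher, where 18.0% of genes were, and Herpud1 was lower (13.2%). Of those 5, Ern1, Eif2ak3 and Ddit3 reached the minimum through the day 3 library, with 44, 22 and 23 UMIs against 6, 6 and 4 in sham control, so the count was shaped by the filter and is no support for a difference of the members from other genes. On day 7 it was 1 of 4 higher (Ern1, with 15.1% of genes) and 1 lower (Herpud1, with 13.8%). Xbp1 on day 1 and Ern1 on day 7 reached the minimum in the same way, from 8 and 6 UMIs in sham control. The counts of those days are therefore no support for such a difference either. The sham control sum of this class held 83 UMIs of the members from 87 nuclei, and the day 1 count rests on 44 nuclei.

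The wider pathway was followed in 4 lists with 93 genes in all, none of them a member. Of 19 genes of folding, 13 of 96 class values were at least 1.5-fold higher and 2 lower on day 3, against 13 and 11 of 87 on day 1 and 5 and 9 of 87 on day 7. The shares of all genes, weighted by the number of list genes in each class, were 8.48% higher and 8.99% lower on day 3, 10.7% and 10.1% on day 1 and 7.99% and 11.8% on day 7. Of the 13 higher values of day 1, 8 were from microglia-like nuclei. This list's median log2 ratio lay above that of all genes in 6 of 6 classes on day 3, by 0.04 to 0.42, in 4 classes on day 1 and in 1 on day 7. With at least 100 UMIs as the minimum the day 3 tally was 5 of 6 classes, and with no minimum it was 6 of 6. Free RNA was not subtracted from the list values. Its share was higher on day 3 than in sham control in each of the 6 classes but microglia-like nuclei. Whether it moved these medians was not tested. In glutamatergic neuron-like nuclei Sdf2l1, a cofactor of BiP, went from 3 to 24 UMIs on day 3, at 5.72-fold (1.74 to 29.7). Its level of 0.456 CPM in sham control was below the free RNA level of 1.28, the day 3 level of 2.61 stood beside 1.66, and the gene reached the minimum of 20 UMIs through day 3. In the same class Hspa13 was 2.22-fold (1.49 to 3.35) above sham control on day 1. Among enzymes of disulfide bonds, day 3 was above sham control for Ero1l in interneuron-like nuclei at 1.85-fold (1.15 to 3.03) and for Pdia6 in microglia-like nuclei at 3.19-fold (1.43 to 8.36), from a sham control level of 34.3 CPM that was below the free RNA level of 37.8. Hsp90b1 and Ppib were at 0.521 (0.288 to 0.903) and 0.391 (0.189 to 0.747) times sham control in astrocyte-like nuclei on day 1, but their levels of 46.7 and 31.1 CPM were below the free RNA levels of 69.0 and 55.5.

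Of 36 targets of ATF4 and CHOP, 27 of 129 class values were higher and 10 lower on day 1, against 14 and 13 of 138 on day 3 and 9 and 14 of 125 on day 7. The shares of all genes in the same classes were 10.5% higher and 10.0% lower on day 1, 8.42% and 8.96% on day 3 and 7.92% and 11.6% on day 7. The list's median lay above that of all genes in 5, 1 and 2 of 6 classes on these days, but on day 1 in 2 of 5 classes with at least 100 UMIs as the minimum and in 4 of 6 with none. On day 1 Cebpb, a partner of ATF4, was 2.35-fold (1.35 to 4.19) and Bbc3 2.11-fold (1.05 to 4.42) above sham control in glutamatergic neuron-like nuclei, Ddit4 was 2.05-fold (1.34 to 3.16) in oligodendrocyte-like nuclei and Slc7a1, a transporter of basic amino acids, 2.79-fold (1.16 to 7.71) in microglia-like nuclei. In astrocyte-like nuclei Phgdh, the first enzyme of serine synthesis, was 0.319 times (0.150 to 0.616) and Slc7a11, the cystine transporter, 0.535 times (0.410 to 0.692) the sham control level on the same day. Gars, a tRNA ligase, was 0.238 times (0.104 to 0.511) sham control in microglia-like nuclei on day 3. Of these values, those of Bbc3 and Slc7a1 leaned on single nuclei, which held 6 of 24 and 7 of 23 UMIs. Without these nuclei the ratios were 1.59 (0.749 to 3.46) and 2.06 (0.802 to 5.92), with intervals that include 1. With 7 UMIs in sham control, Slc7a1 also reached the minimum of 20 UMIs through day 1.

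Among 20 genes of degradation and translocation, 9 of 102 class values were higher and 4 lower on day 1, 12 and 7 of 109 on day 3, and 1 and 15 of 98 on day 7. All genes in the same classes had shares of 11% higher and 10.5% lower on day 1, 9.06% and 9.26% on day 3 and 8.38% and 12% on day 7, against list shares of 1.02% and 15.3% on day 7. The list's median lay above that of all genes in 5, 5 and 2 of 6 classes on days 1, 3 and 7. With at least 100 UMIs as the minimum these tallies were 3 of 5, 4 of 6 and 0 of 5. Sec63, a translocation cofactor of BiP, was 1.40-fold (1.26 to 1.56) above sham control in glutamatergic neuron-like nuclei on day 1, from 636 and 724 UMIs. Derl1, a channel component of degradation, was 1.77-fold (1.07 to 3.03) higher in oligodendrocyte-like nuclei on day 3, with an interval of 0.999 to 2.87 once 1 nucleus was left out. On day 7 Sec61a1, of the translocation pore, was 0.507 times (0.283 to 0.879) and 0.682 times (0.481 to 0.955) sham control in oligodendrocyte-like and striatal projection neuron-like nuclei, the first with an interval of 0.320 to 1.02 without 1 sham control nucleus of 6 UMIs. Of 18 sensors and genes of eIF2 control, 10 of 85 values were higher and 5 lower on day 1, 7 and 8 of 90 on day 3, and 14 and 11 of 83 on day 7, where the shares of all genes were 10.6% and 10.4%, 8.83% and 9.14%, and 8.27% and 11.9%. Eif2ak2, the kinase PKR that responds to double-stranded RNA and to interferon, went from 4 to 48 UMIs in microglia-like nuclei on day 3, at 5.70-fold (2.09 to 21.8), and reached the minimum through that day. Atf6 was 1.13-fold (1.04 to 1.23) above sham control in glutamatergic neuron-like nuclei on day 1, and Ppp1r15a, the feedback phosphatase subunit of eIF2, 0.409 times (0.183 to 0.869) on day 3.

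**Figure D5:**
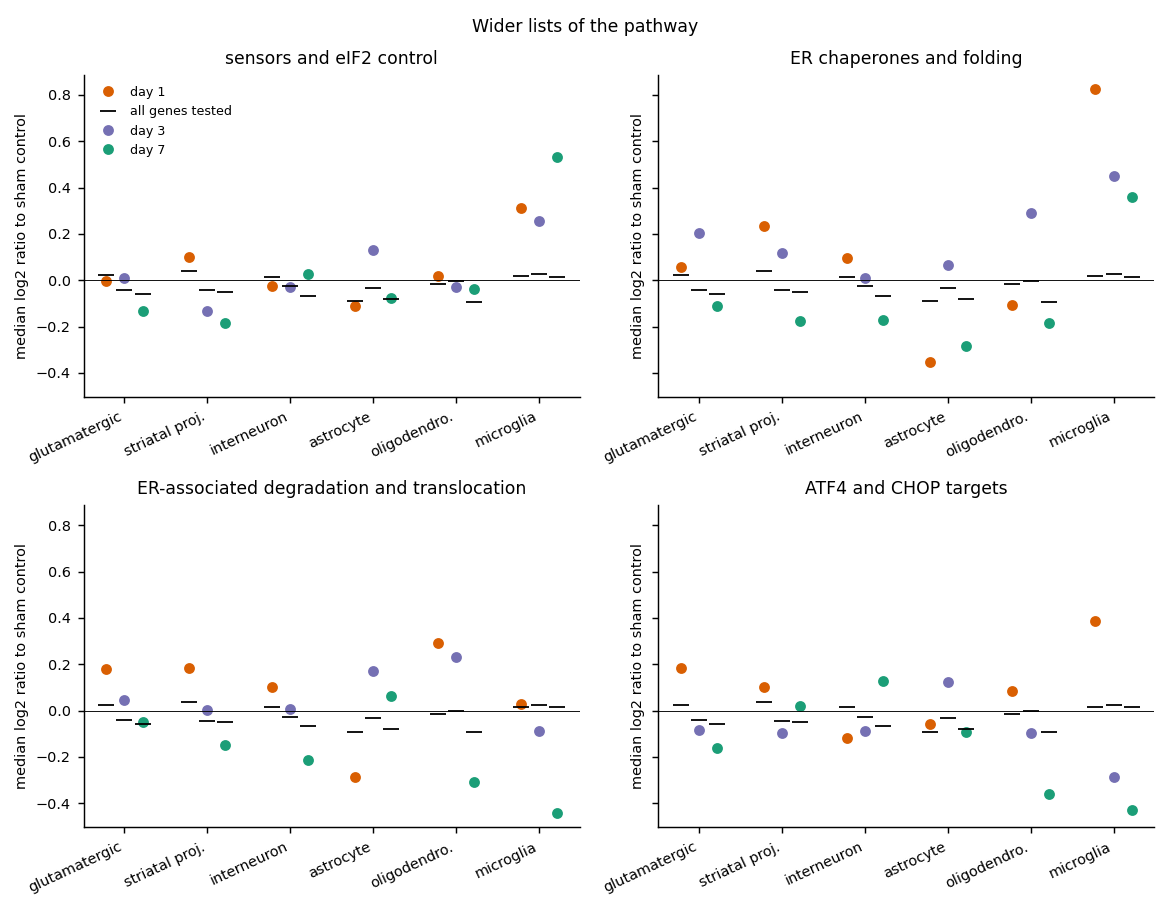
Median log2 ratio to sham control of 4 pathway lists by cell class and day (dots), with the median of all genes tested in the same class and day as a dash. The chaperone list lies above the dash in 6 of 6 classes on day 3, or 5 of 6 with at least 100 UMIs as the minimum. For the ATF4 and CHOP targets on day 1 it is 5 of 6, or 2 of 5 with that minimum. The degradation and translocation list lies above the dash in 5 of 6 classes on day 1 and on day 3, or 3 of 5 and 4 of 6.

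The genes whose level across sums of class and library was most like that of Hspa5 were Chmp4b, Xiap and Gnai2, with Pearson correlations of 0.933, 0.914 and 0.909 over 28 sums (the 6 classes and the unnamed neuronal nuclei in 4 libraries) and 3321 genes compared. For Calr they were Pds5a (0.889), Ctsl (0.880) and Hspa5 (0.880). For Herpud1 they were Lats2, Tom1 and Tsc22d4, at 0.922, 0.915 and 0.908. Atf4 had enough UMIs in 23 sums, over which Cntrl, Psmd12 and Dctn4 were most like it, at 0.914, 0.909 and 0.909 of 4494 genes. These sums share libraries, depth and free RNA, so the correlations are a description of the level across classes.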

How the data were processed

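The authors deposited raw, unfiltered UMI counts per gene and barcode for 4 single-nucleus libraries. Per the study's methods, reads were mapped to GRCm38 with GENCODE vM8 by STARsolo (STAR 2.7.3a) with introns counted, and free RNA was removed in a later step that these counts do not hold. From the deposited counts, barcodes were called as nuclei by a re-implementation of emptyDrops (lower limit 1000 UMIs, FDR 0.001), doublets were removed with Scrublet (scanpy 1.11.5), and nuclei were clustered with Seurat 5.3.0 (SCTransform, anchor integration, 30 components, resolution 0.8) without the genes reported here. The 30 clusters were named from fixed markers, of which 213 of 216 were found. UMIs were summed per class and library. With 1 library per group there was no test and no p-value. Levels carry exact 95% Poisson intervals and ratios exact conditional binomial ones, both for counting error only, and shares of 0 have an upper limit of 3 counts. Counts past 1.5-fold used genes with at least 20 UMIs over both sums.

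The members, markers and lists were chosen with earlier results of these data known. Named were all 10 members. From each list and class, up to 2 genes furthest up and 2 furthest down over the 3 days with intervals that leave out 1 were eligible, and some of these are printed. The 3 genes most like Hspa5, Calr, Atf4 and Herpud1 were also named. Coordinates of promoters are RefSeq GRCm38.p6. Scripts were tested on simulated counts. TMM scaling used edgeR 4.0.16.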

Additional observations from a re-analysis of the deposited data

Results flagged for a closer look

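The classes left out of the comparisons, because a library held under 40 of their nuclei or their markers gave no name, carried 8 member values above sham control with an interval above 1. Of the 71 values there with at least 20 UMIs, 6 had an interval above 1 (8.45%) and 3 an interval below 1 (4.23%), against 7.83% and 8.40% of the values of all genes. The 3 below sham control were Herpud1 in the unnamed neuronal nuclei on day 3, at 0.659 (0.457 to 0.946), and on day 7, at 0.629 (0.413 to 0.944), and Calr in the other unnamed nuclei on day 1, at 0.466 (0.228 to 0.911). No cause of these values was tested.

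Of the 8 values above sham control, the highest levels lay in vascular nuclei. In endothelial cell-like nuclei, of which the day 1 library held only 6, Xbp1 was 110, 338, 128 and 146 CPM from sham control to day 7, and Atf4 was 58.3, 215, 79.0 and 108 CPM. Their day 1 ratios were 3.07 (1.30 to 6.96) and 3.69 (1.17 to 11.1), from 11 and 7 UMIs, and 7 of the 11 Xbp1 UMIs lay in 1 nucleus. Hspa5 in the same nuclei was 155, 338, 272 and 200 CPM, with day 3 at 1.75 (1.12 to 2.84) from 73 nuclei. Free RNA levels of all 3 genes in this class were at most 45.2 CPM. In fibroblast-like nuclei Ern1 went from 1 UMI to 7 UMIs on day 7, a ratio of 8.48 (1.09 to 382).

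In oligodendrocyte precursor-like nuclei Eif2ak3 was 22.6, 88.6, 45.8 and 50.1 CPM, with day 1 at 3.91 (1.49 to 12) from 6 and 18 UMIs. This value reached the minimum of 20 UMIs, and so the count of intervals above 1, through day 1. Hspa5 was 34.0, 49.2, 91.6 and 35.1 CPM there, with day 3 at 2.7 (1.26 to 6.43), beside free RNA levels of 44.3, 59.4, 69.1 and 57.8 CPM. Atf4 in the other unnamed nuclei had a day 3 ratio of 2.36 (1.03 to 6.31). It was 29.0, 28.0, 68.6 and 46.6 CPM there, beside free RNA levels of 42.3, 116, 48.6 and 75.2 CPM, which were above the measured level in sham control and on days 1 and 7. Calr in the unnamed neuronal nuclei had a day 7 ratio of 1.31 (1.01 to 1.70), from 113 and 124 UMIs.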

How the results depend on the processing

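For 141 member ratios, TMM scaling and doublets kept moved none beyond its interval. Nor did each cluster weighted by its share over the 4 libraries, each barcode over 1000 UMIs or a mean over nuclei. Nor did libraries merged or listed genes kept in the clustering, although the interneuron-like class then held 1491 and 1402 nuclei against 621. An unnamed neuronal cluster of 786 nuclei had missed that name at a score of 0.9987, just under the minimum. Thinning nuclei to 1000 UMIs moved 40 of 133 with a value and reversed 2, Hspa5 on day 1 (-1.89) and Ddit3 on day 3 (2.08), both in striatal projection neuron-like nuclei. Free RNA subtracted in proportion to UMIs, by an equal number per nucleus and by the share of each class moved 15 of 134, 20 of 124 and 23 of 128 with a value and reversed 1, 0 and 1. The reversed values do not cover every change of sign. By the share of each class, Calr on day 3 went to -2.96 in striatal projection neuron-like and -0.08 in interneuron-like nuclei, both counted as moved. Leaving out the nucleus with most UMIs of a gene, chosen after seeing the data, brought 1 into the interval for 4 of 19 member values and 32 of 73 values of list genes, and Slc7a11 in striatal projection neuron-like nuclei on day 7 turned to -0.53. The rest is log2 ratios with free RNA subtracted, or thinned. In proportion to UMIs, Hspa5 in glutamatergic neuron-like nuclei on day 3 was -0.22 and the sum of the 10 members -0.050, -0.11 and -0.13 on days 1, 3 and 7. It was -0.018 on day 3 and -0.12 on day 7 in striatal projection neuron-like and -0.18 on day 1 in interneuron-like nuclei. With the same number taken from each nucleus the sum was 0.027 and 0.054 on days 1 and 3 in glutamatergic neuron-like, -0.084 on day 7 in striatal projection neuron-like, -0.50 and -0.63 on days 1 and 3 in astrocyte-like, and 1.02 and 1.28 in microglia-like nuclei. By the share of each class, chosen after seeing the data, it was -0.16, -0.44 and -0.48 on days 1, 3 and 7 in striatal projection neuron-like (Hspa5 on day 3 -0.73), -0.17 on day 3 in interneuron-like, -0.56 on day 1 in astrocyte-like and 1.34 on day 3 in microglia-like nuclei. Thinned, it was 0.69 and 0.84 on days 1 and 3 in striatal projection neuron-like, -0.16 on day 1 in interneuron-like, and 0.34 and 0.29 on days 1 and 3 in astrocyte-like nuclei. Subtraction leaves few UMIs, and the cause of each move was not tested.

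Of 31 member values over classes and days past 1.5-fold, 6 were past it with at least 100 UMIs as the minimum, and 7 were past 2-fold. With no minimum, 57 of 72 list medians moved by under 0.1 and 9 changed sign, and with at least 100 UMIs 43 of 61 moved by under 0.1, 12 changed sign and the largest move was 0.83. No paired analysis was possible because each group is 1 library, and no replicate could be left out.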
